A study of Bos taurus with 16 samples.

Results

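The genes described here encode the main soluble proteins of cow's milk and the proteins that coat its fat droplets. They were chosen by name, for their known place in milk, and are 9 of the 18435 genes to which the array annotation gives exactly 1 symbol. The 4 whey protein genes were LALBA, PAEP, GLYCAM1 and LTF, and the 5 milk fat globule membrane genes were BTN1A1, XDH, MUC1, MUC15 and MFGE8. Each was read from the brightest probe set of that gene. A further, dimmer probe set carried the older symbol BTN, which the RefSeq gene table gives as a synonym of BTN1A1.

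Expression was measured on arrays of mammary needle biopsies from 16 Parda de Montaña heifers, a cattle breed, taken at the end of the first lactation. All calves suckled their dams in sessions of 30 min until 6 months of age. In that period 8 of them also received a starter concentrate (CON, n = 8) and the other 8 had only their dam's milk (NOCON, n = 8). From 6 to 15 months all heifers had alfalfa hay and concentrates, at 67% forage with 33% concentrate or, for as many heifers of each group, at 87% forage with 13% concentrate. The labels do not give the ration of each heifer, which was therefore not compared. Every heifer gave 1 array, named here by group and replicate number, so the spread between arrays holds the heifer, the biopsy and the assay together. A biopsy is a mixture of cells, in which fewer secretory cells and less RNA per secretory cell cannot be told apart.

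Whey is the fluid left when the caseins have curdled. Most of its protein is made by the luminal secretory cells of the alveoli. Much of that synthesis is driven by prolactin acting through the transcription factor STAT5. The product leaves the cell in secretory vesicles together with the caseins. Milk fat leaves by another route: lipid droplets rise to the apical surface and bud off wrapped in plasma membrane, and the proteins of that wrapping form the milk fat globule membrane. The end of lactation is followed by involution, in which milk secretion stops and the alveoli regress.

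Transcripts that define secretory cells were abundant in the biopsies. The group means of the 4 caseins, the main products of these cells, lay between 11.78 (CSN1S2, NOCON) and 12.38 (CSN2, CON) as log2 values, and no probe set exceeded 12.66 on any array. Over the 16 arrays, LALBA lay on average 0.43 below the highest value of its array, PAEP 0.54 and GLYCAM1 0.69, near the top of the scale, where differences can be compressed. Of the 16 arrays, 5 (CON 2, CON 6, CON 7, NOCON 1 and NOCON 5) correlated less well with the rest: their median correlation with the other arrays ran from 0.866 (CON 7) to 0.974, against 0.986 to 0.989 for the other 11. For results that moved most when these 5 arrays were left out, the value without them is given beside. No read depth exists for arrays, and the 8 heifers per group limit the precision.

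The first comparison asks whether concentrate before weaning was followed by a different level of these transcripts at the end of the first lactation. None of the 9 genes passed an adjusted p of 0.05 with limma, and none had an unadjusted p under 0.05 with limma or with the exact permutation test. Across all 26773 probe sets, 16 passed, or 0.0598% (0.0374% higher and 0.0224% lower in CON), and 2320, or 8.67%, had an unadjusted limma p under 0.05. Among the 18435 genes, each read from its brightest probe set, 2 passed, both lower in CON, and 1460 had an unadjusted limma p under 0.05. Of the 9 genes, 4 had a higher and 5 a lower mean in CON, with a median difference of -0.0014 on the log2 scale, beside -0.0037 over all 18435 genes.

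**Figure D1:**
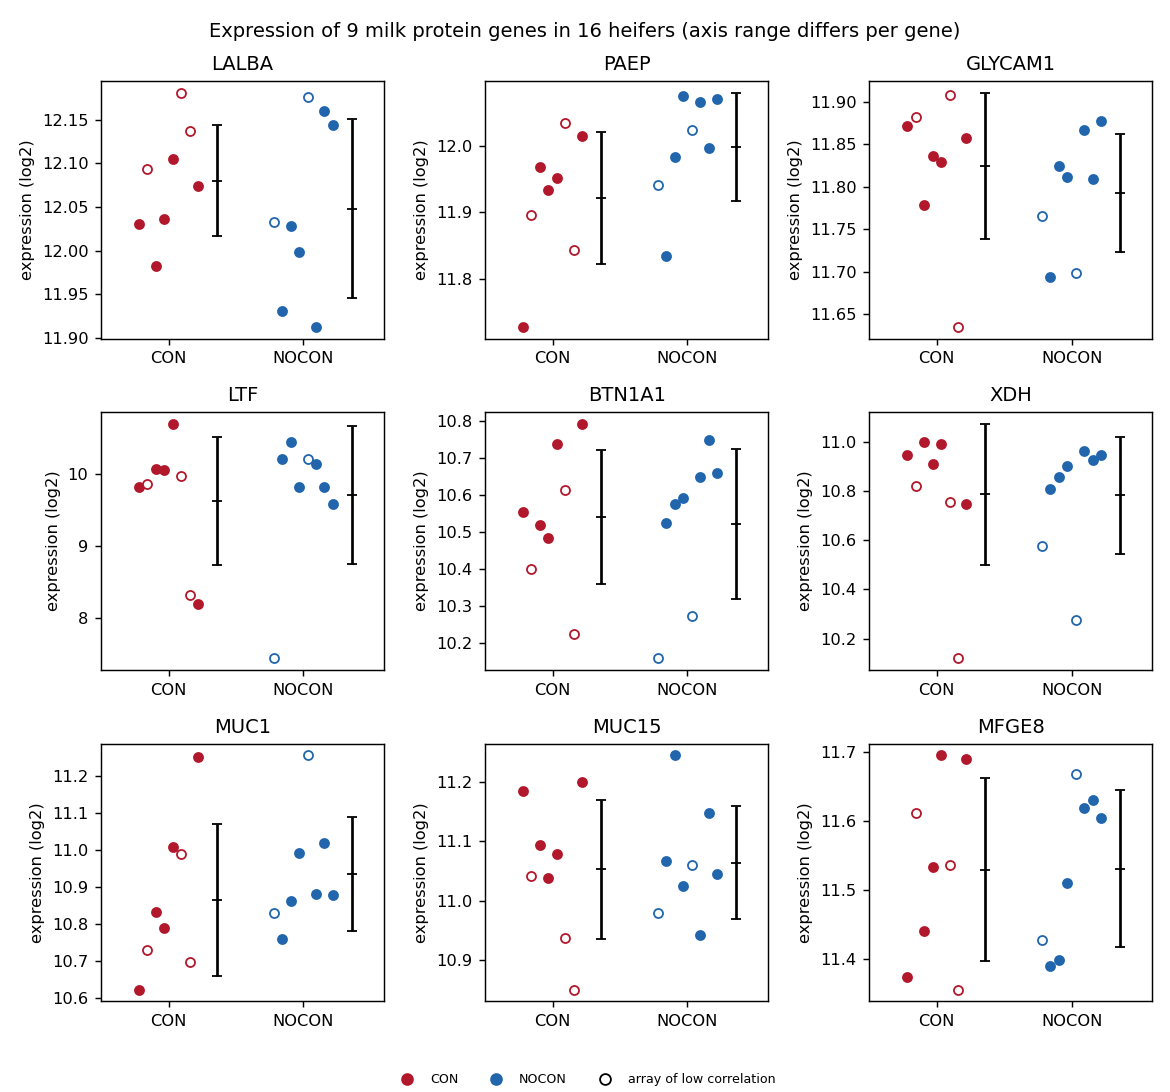
Expression (log2) of each gene in the 8 CON and 8 NOCON heifers, 1 point per heifer, with open circles for the 5 arrays of low correlation and bars for the mean ± SD of a group. The groups overlap for all 9 genes, and the axis of LTF spans 3.25 log2 units from the lowest to the highest heifer while that of LALBA spans 0.27.

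LALBA encodes alpha-lactalbumin, the subunit that turns a galactosyltransferase into lactose synthase. Its expression ran from 11.98 to 12.18 in CON, with a median of 12.08, and from 11.91 to 12.18 in NOCON, with a median of 12.03. The highest heifers were CON 6 and NOCON 5 and the lowest NOCON 6 and NOCON 2, so the range of CON lay almost wholly within that of NOCON. The difference, CON minus NOCON, was 0.03 on the log2 scale (SE 0.05, adjusted p = 0.832 with limma).

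PAEP encodes beta-lactoglobulin, a lipid-binding lipocalin and the most abundant whey protein of cow's milk. It ran from 11.73 to 12.03 in CON, with a median of 11.94, and from 11.84 to 12.07 in NOCON, with a median of 12.01. The lowest heifer was CON 1 and the 3 highest were in NOCON, but the groups overlapped over most of their range. PAEP had the smallest p of the 9 genes, with a log2 difference of -0.08 (SE 0.05, unadjusted limma p = 0.157, adjusted p = 0.636; exact permutation p = 0.11, two-sided), and 2 of 8 CON heifers lay above the NOCON median.

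GLYCAM1 encodes a mucin-like phosphoglycoprotein, also called lactophorin, found in whey and on fat globules. Its expression ran from 11.63 (CON 7) to 11.91 (CON 6) in CON and from 11.69 (NOCON 2) to 11.88 (NOCON 8) in NOCON, with medians of 11.85 and 11.81. Both the lowest and the highest heifer were in CON, so the range of NOCON lay within that of CON. The log2 difference was 0.03 (SE 0.05, adjusted p = 0.826 with limma).

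LTF encodes lactoferrin, an iron-binding and antimicrobial protein that in cattle is known to increase in milk during udder infection and involution. It was the gene that differed most between heifers. LTF ran from 8.19 to 10.69 in CON, with a median of 9.91, and from 7.44 to 10.43 in NOCON, with a median of 9.97. In 13 heifers LTF lay between 9.58 and 10.69, and in the other 3 it was lower, at 8.32 in CON 7, 8.19 in CON 8 and 7.44 in NOCON 1. The largest gap between neighbouring values, 1.26 on the log2 scale, separated these 3 heifers from the 13, and the lowest was 6.10-fold below the mean of the 13. The low values occurred in both groups, and the log2 difference between the groups was -0.08 (SE 0.43, adjusted p = 0.956 with limma; -0.41 without NOCON 1, 0.12 without CON 8, 0.10 without CON 7 and -0.23 without the 5 arrays of low correlation).

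**Figure D2:**
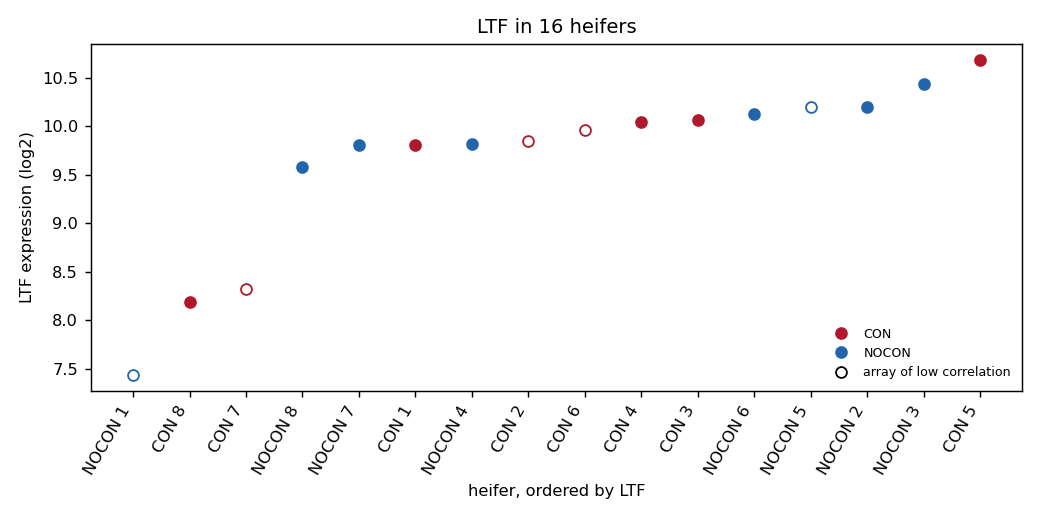
LTF expression (log2) in each of the 16 heifers, ordered from low to high, with open circles for the 5 arrays of low correlation. The 3 lowest heifers, NOCON 1, CON 8 and CON 7, lie below a gap of 1.26, and CON 8 is not among the arrays of low correlation.

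CON 7 and NOCON 1 were 2 of the 5 arrays of low correlation, and their part in the low LTF values was not tested. CON 8 was not one of them, with a median correlation of 0.987, and without the 5 arrays its LTF value stood 1.39 below the next heifer. In the same heifer BTN1A1 (10.79) and, among the 11 other arrays, MUC1 (11.25) had their highest values, while MUC15 (11.20) and MFGE8 (11.69) each had their second highest of 16. The mean of 8 T and NK cell markers was lowest in CON 8, at -0.17 relative to all arrays, against -0.12 in NOCON 1, the second lowest, and 0.14 in CON 7, the second highest of all; 6 of these 8 markers were dim, with means under the highest array median of 4.57. The mean of 19 acute phase and defence genes was -0.18 in CON 8, 0.25 in CON 7 and -0.01 in NOCON 1. The 3 heifers with low LTF thus did not share a mean level of that list, but 11 of its 19 genes were dim. The mean of 4 caseins was 0.20 in CON 7 and 0.11 in CON 8, the 2 highest, and 0.02 in NOCON 1. Spearman's rho of LTF with that mean was -0.63 over the 16 heifers and did not pass (permutation, adjusted p = 0.157). Pearson's r, as a description, was -0.84 over the 11 other arrays, which hold CON 8, and -0.33 over the 13 heifers above the gap.

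BTN1A1 encodes butyrophilin, a receptor-like protein of the apical membrane that in mice is needed for regulated secretion of fat droplets. It ran from 10.22 to 10.79 in CON, with a median of 10.54, and from 10.16 to 10.75 in NOCON, with a median of 10.58. The 3 lowest heifers, NOCON 1, CON 7 and NOCON 5, were all arrays of low correlation, and the groups overlapped throughout. The log2 difference was 0.02 (SE 0.09, adjusted p = 0.958 with limma), and -0.0078 without the arrays of low correlation. The dimmer probe set listed as BTN had a mean of 6.00, ran from 4.95 to 6.76 and followed the brighter one with r = 0.63 over the 16 arrays, or 0.25 over the 11 (a description, with no test). The 2 probe sets thus did not give the same order of heifers.

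XDH encodes xanthine oxidoreductase, a purine-degrading enzyme that binds butyrophilin under the membrane of the budding droplet. Its expression ran from 10.12 to 10.999 in CON, with a median of 10.86, and from 10.28 to 10.96 in NOCON, with a median of 10.88. In 13 heifers XDH lay between 10.75 and 10.999, and the 3 lower ones were CON 7 (10.12), NOCON 5 (10.28) and NOCON 1 (10.58), again arrays of low correlation. The log2 difference was 0.0037 (SE 0.13, adjusted p = 0.993 with limma), and 0.10 without CON 7.

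MUC1 encodes a large transmembrane mucin of the apical surface. It ran from 10.62 to 11.25 in CON, with a median of 10.81, and from 10.76 to 11.26 in NOCON, with a median of 10.88. The highest heifers, NOCON 5 and CON 8, came from both groups, and the lowest was CON 1. The log2 difference was -0.07 (SE 0.09, adjusted p = 0.799 with limma), and 0.0020 without the arrays of low correlation.

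MUC15 encodes a smaller membrane mucin first isolated from the bovine fat globule. Its expression ran from 10.85 to 11.20 in CON and from 10.94 to 11.245 in NOCON, with medians of 11.06 and 11.05. MFGE8 encodes lactadherin, which binds phosphatidylserine on membranes and, secreted by macrophages too, helps them to take up dying cells. MFGE8 ran from 11.36 to 11.70 in CON and from 11.39 to 11.67 in NOCON, with medians of 11.54 and 11.56. For both genes the medians differed by less than 0.1 and the groups overlapped almost completely. The log2 differences were -0.01 for MUC15 (SE 0.06, adjusted p = 0.958 with limma) and -0.0014 for MFGE8 (SE 0.06, adjusted p = 0.995 with limma), or 0.04 and 0.02 without the 5 arrays of low correlation.

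**Figure D3:**
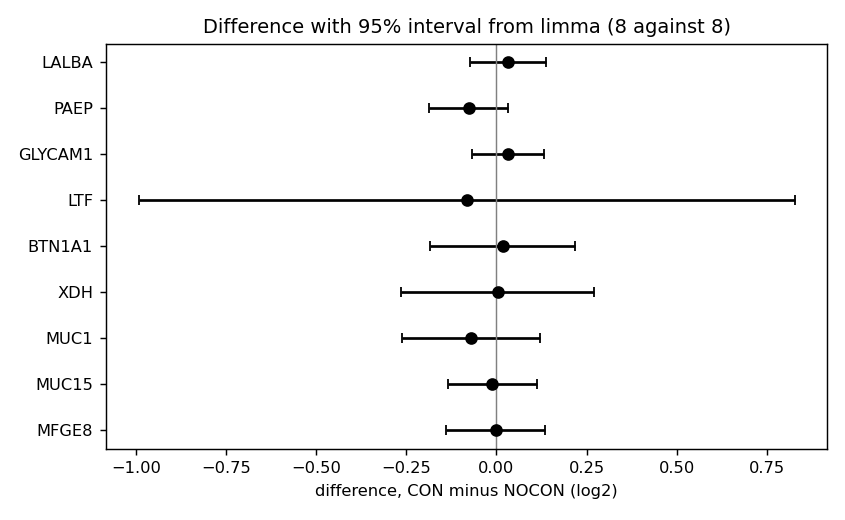
Difference in expression, CON minus NOCON (log2), for each gene, with the 95% interval from limma (8 heifers against 8). All 9 intervals include 0, and the widest, that of LTF, runs from -0.99 to 0.83.

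A p above the threshold does not show equal levels, and the intervals differ widely between genes. For LALBA the 95% interval of the fold, CON over NOCON, ran from 0.950 to 1.10, for GLYCAM1 from 0.953 to 1.10 and for PAEP from 0.879 to 1.02. For MUC15 it ran from 0.911 to 1.08 and for MFGE8 from 0.908 to 1.10. The intervals of BTN1A1 (0.881 to 1.16), MUC1 (0.835 to 1.09) and XDH (0.833 to 1.21) were wider. For LTF the interval ran from 0.503 to 1.77, the widest of the 9. LALBA, PAEP and GLYCAM1 lay near the top of the scale, where differences can be compressed. Their narrow intervals therefore bound the measured fold and may understate the fold in RNA.

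The spread within groups set LTF apart from the other 8 genes. Its SD was 0.88 in CON and 0.95 in NOCON, and 99.7% of the 18435 genes had a smaller SD within groups. Over the 13 heifers above the gap the SD of LTF was 0.29. The SD within groups was 0.09 for LALBA, 0.09 for PAEP and 0.08 for GLYCAM1, smaller than that of most genes: 6.18%, 7.72% and 4.59% of all genes varied less. Among the genes with a mean within 1 log2 unit of the same gene, 10.9% of 46 genes varied less than LALBA, 12.5% of 56 less than PAEP and 6.85% of 73 less than GLYCAM1. The membrane genes lay between, with SDs of 0.11 (MUC15), 0.12 (MFGE8), 0.18 (MUC1), 0.19 (BTN1A1) and 0.26 (XDH). Values near the top of the scale can be compressed, and the part of that in the small SDs of LALBA, PAEP and GLYCAM1 was not tested.

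The next comparison asks which of the genes varied together between heifers. Over the 16 heifers, 4 of the 36 pairs of genes had a correlation past an adjusted p of 0.05, all positive, and they fell into 2 sets. MUC1 rose with MFGE8 and with PAEP, and XDH with BTN1A1 and with GLYCAM1. Both pairs with MUC1 also passed by rank correlation, whereas the pairs with XDH did not. Without the 5 arrays of low correlation MUC1 with MFGE8 was the only one of the 4 that passed. Their adjusted p lay near the threshold: none of the 36 pairs passed without CON 1, CON 7, NOCON 1 or NOCON 5, 2 passed without CON 4, and none passed when deviations from the group means were used (adjusted p from 0.0518 to 0.0778). The r itself moved less. With any 1 heifer left out it ran from 0.68 to 0.81 for MUC1 with MFGE8, from 0.60 to 0.73 for PAEP with MUC1, from 0.65 to 0.80 for BTN1A1 with XDH and from 0.51 (without CON 7) to 0.79 for GLYCAM1 with XDH.

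For MUC1 and MFGE8, Pearson's r was 0.73 (permutation p = 0.00121, adjusted p = 0.0365) and Spearman's rho 0.79 (permutation p = 0.00039, adjusted p = 0.014). The r was 0.76 within CON, 0.71 within NOCON, 0.63 without CON 8 and NOCON 5, the heifers farthest from the median of MUC1, and 0.77 over the 11 heifers without the arrays of low correlation. Across all other genes, 0.320% were at least as correlated with MUC1 and 0.109% with MFGE8 as these genes were with each other. In both genes CON 8 and NOCON 5 were among the 3 highest heifers, and CON 1 and CON 7 were the 2 lowest.

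For PAEP and MUC1, r was 0.68 (permutation p = 0.00383, adjusted p = 0.0391) and rho 0.76 (permutation p = 0.00097, adjusted p = 0.0175). The r was 0.81 within CON and 0.46 within NOCON, 0.56 without CON 1 and NOCON 2, and 0.64 over the 11 heifers, where it did not pass (adjusted p = 0.344) and was 0.18 without CON 1 and NOCON 2. Across all other genes, 0.0814% were at least as correlated with PAEP and 0.575% with MUC1. PAEP and MFGE8 had an r of 0.59 and did not pass (adjusted p = 0.083).

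For BTN1A1 and XDH, r was 0.73 (permutation p = 0.00203, adjusted p = 0.0365) but rho was 0.47 (permutation p = 0.0685, adjusted p = 0.352). The r was 0.62 within CON, 0.86 within NOCON and 0.58 without CON 7 and NOCON 1, and over the 11 heifers it was -0.15. For GLYCAM1 and XDH, r was 0.71 (permutation p = 0.00435, adjusted p = 0.0391) and rho 0.35 (permutation p = 0.187, adjusted p = 0.513), with 0.72 within CON, 0.73 within NOCON, 0.59 without CON 7 and NOCON 2, and 0.25 over the 11 heifers. Across all other genes, 4.70% were at least as correlated with BTN1A1 and 5.39% with XDH as these genes were with each other; for the other pair the shares were 0.0217% with GLYCAM1 and 6.28% with XDH. In both pairs the 3 lowest values of XDH, in CON 7, NOCON 5 and NOCON 1, were from arrays of low correlation.

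**Figure D4:**
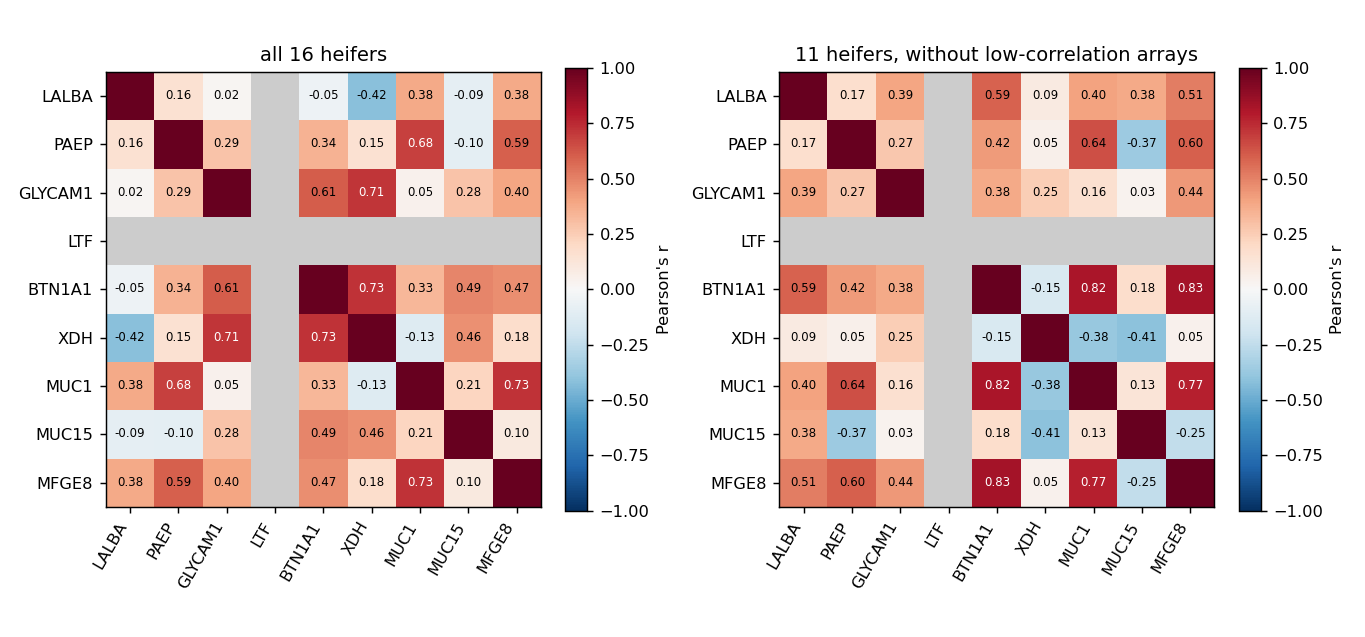
Pearson's r for each pair of genes over all 16 heifers (left) and over the 11 heifers without the arrays of low correlation (right), from -1 (blue) to 1 (red). LTF is left grey because a gap separates its 3 lowest values from the other 13. BTN1A1, MUC1 and MFGE8 have an r of 0.77 to 0.83 with each other on the right. The r of BTN1A1 and XDH is 0.73 on the left and -0.15 on the right.

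Over the 11 heifers, 3 of the 36 pairs passed, and they joined the 3 membrane genes BTN1A1, MUC1 and MFGE8. BTN1A1 had an r of 0.82 with MUC1 (permutation p = 0.00105, adjusted p = 0.0378; rho 0.88, permutation p = 0.00073, adjusted p = 0.0238), or 0.64 without CON 8 and NOCON 7. With MFGE8 its r was 0.83 (permutation p = 0.00253, adjusted p = 0.0383; rho 0.76, permutation p = 0.0079, adjusted p = 0.0948), or 0.77 without the same 2 heifers. MUC1 and MFGE8 had an adjusted p of 0.0383. For these 3 pairs, from 0.190% to 0.532% of all other genes were at least as correlated with either gene over the 11 heifers. Both pairs with BTN1A1 rest on its brighter probe set, which the dimmer one followed with an r of 0.25 over these heifers. Over all 16 heifers the r of BTN1A1 was 0.33 with MUC1 and 0.47 with MFGE8, and neither passed. Within the groups it was 0.79 in CON and -0.17 in NOCON with MUC1, and 0.69 in CON and 0.24 in NOCON with MFGE8; in NOCON 5 MUC1 was highest of all heifers and BTN1A1 among the 3 lowest. XDH and MUC15 belong to the same membrane, and their r with the 3 genes over the 11 heifers lay between -0.38 and 0.18.

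**Figure D5:**
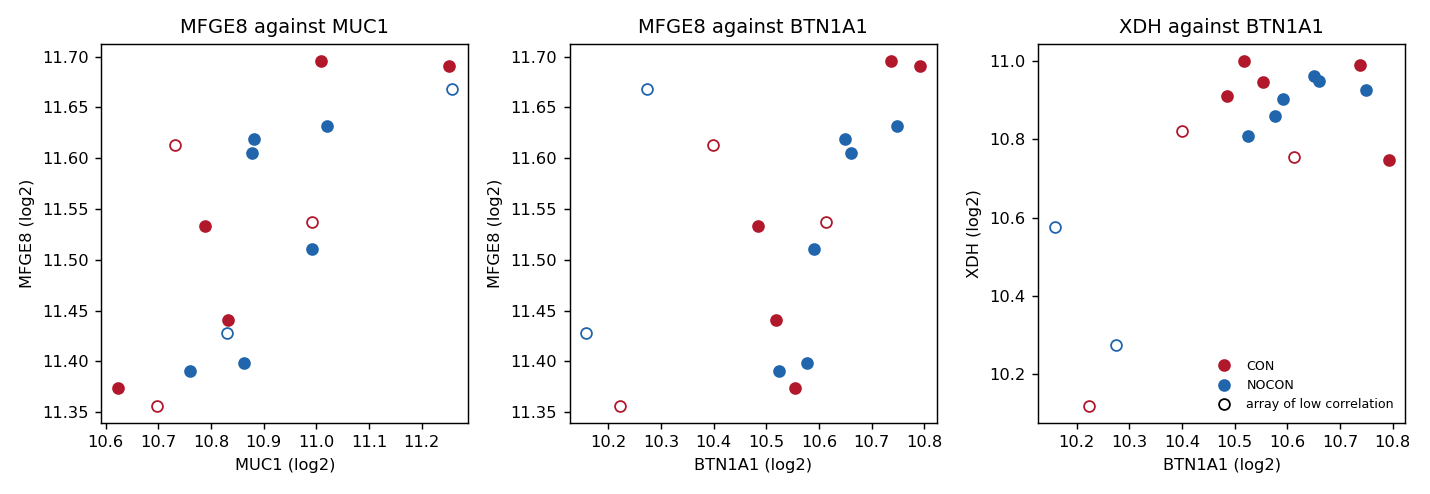
Expression (log2) of MFGE8 against MUC1, MFGE8 against BTN1A1 and XDH against BTN1A1, 1 point per heifer, with open circles for the 5 arrays of low correlation. Filled points rise together in the first and second plots, and in the plot of XDH the low values of XDH are open points.

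The 8 pairs with LTF were counted among the 36, and none passed. Their r over 16 heifers is not given, since a gap of 1.26 separates the 3 lowest values of LTF from the others. Whether these form a set of their own was not tested. Over the 13 heifers above the gap r lay between -0.35 (GLYCAM1) and 0.24 (MUC1), as a description.

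To see what else moved with these genes, each of the 9 was correlated with the mean of 16 fixed lists, 6 of pathways and 10 of cell type markers. Over 16 heifers 10 of 144 relations passed, 3 with BTN1A1, 4 with XDH and 3 with MUC15. Without the 5 arrays of low correlation, by rank correlation or with a further quantile normalization none did. Of all genes, 43.4% had an r beyond 0.5 in either direction with BTN1A1, 48.2% with XDH and 53.8% with MUC15 over the 16 heifers. Over the 11 heifers these shares were 15.7%, 18.9% and 21.6%. XDH correlated with the mean of 8 endothelial markers with r = 0.80 (permutation p = 0.00138, adjusted p = 0.0331; rho 0.51, permutation p = 0.0451, adjusted p = 0.26), 0.89 within CON, 0.64 within NOCON, 0.53 without CON 7 and NOCON 1, and -0.04 over the 11 heifers. The endothelial mean ran from -1.19 (CON 7) to 0.51 in CON and from -0.70 (NOCON 1) to 0.47 in NOCON, relative to all arrays. With the mean of 9 myoepithelium and smooth muscle markers, r was 0.75 for XDH (rho 0.76, r 0.47 over the 11 heifers). For BTN1A1 it was 0.73 (rho 0.59, r 0.39 over the 11). BTN1A1 with the endothelial mean had an r of 0.73, or -0.34 over the 11. Also past the threshold were XDH with 9 adipocyte markers, 7 of them dim (r = -0.65, or -0.0068 over the 11), and MUC15 with 8 lactose and glucose genes (r = 0.73, or 0.52). BTN1A1 correlated with the mean of 16 other fat globule and droplet genes with r = 0.67 (permutation p = 0.00184, adjusted p = 0.0331; rho 0.69, permutation p = 0.00432, adjusted p = 0.124), 0.83 within CON, 0.70 within NOCON, 0.52 without CON 7 and NOCON 1, and 0.80 over the 11 heifers, where the adjusted p was 0.421. With all probe sets of a gene averaged, which adds the dimmer probe set of BTN1A1, this r was 0.30 and did not pass.

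MUC15 correlated with the mean of 10 genes of the prolactin and STAT5 pathway with r = 0.76 (permutation p = 0.00032, adjusted p = 0.023; rho 0.74, permutation p = 0.00161, adjusted p = 0.0601), 0.92 within CON, 0.50 within NOCON, 0.61 without CON 7 and NOCON 1, and 0.56 over the 11 heifers. With 1 heifer left out, this relation passed in 15 cases and failed only without CON 7. Only 2 of the 144 relations passed without NOCON 1, this one among them, and none without CON 7. The pathway mean was lowest in CON 7 (-0.88) and NOCON 1 (-0.34) and highest in CON 8 (0.27). MUC15 also correlated negatively with the mean of 5 erythrocyte genes, all 5 of which were dim (r = -0.76, or -0.51 over the 11 heifers). XDH correlated negatively with the mean of 8 neutrophil markers, all 8 dim (r = -0.80, rho -0.22), and over the 11 heifers this r turned to 0.53. In CON 7 the erythrocyte mean was 0.33 and the neutrophil mean 0.46, against at most 0.08 and 0.14 elsewhere. The median of all probe sets was also highest in CON 7, 4.57 against at most 4.34 elsewhere. Its part in these means of dim genes was not tested. The mean of 14 luminal epithelium markers was -0.75 in CON 7 and ran from -0.10 to 0.23 in the other heifers. CON 7 also had the narrowest interquartile range of all arrays, 1.49, and the part of any of these in the values of XDH, BTN1A1 and MUC15 was not tested.

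The genes most like each of the 9, by Pearson's r over the 16 arrays, were listed as a description, 3 for each. For MUC1 they were MTRFR (0.89), RHBG (0.85) and GRTP1 (0.85), and for MFGE8 LRRC8A (0.82), TSPAN33 (0.79) and RNASEH2C (0.78). RHBG encodes an ammonium transporter and LRRC8A a subunit of volume-regulated anion channels. Over the 11 heifers these 6 had an r of 0.80, 0.92, 0.80, 0.84, 0.84 and 0.71. For PAEP they were the ribosomal protein gene RPL13A (0.78), the kinase gene MAP3K14 (0.77) and RNF126 (0.75), and for LALBA FCER1G (0.79) and GPNMB (0.78), both known from macrophages, and AP5B1 (0.73). Over the 11 heifers these were 0.80, 0.83 and 0.83 for PAEP and 0.71, 0.76 and 0.67 for LALBA. The mean of 8 macrophage and dendritic cell markers had an r of 0.43 with LALBA and did not pass (permutation, adjusted p = 0.24).

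XDH was most like APP (0.94), ZNF532 (0.93) and MYH11 (0.92), of which MYH11 encodes the myosin heavy chain of smooth muscle. Over the 11 heifers these r were 0.45, 0.56 and 0.46. BTN1A1 was most like ANG2 (0.93), a gene of the angiogenin family of ribonucleases, FBXO7 (0.92) and SETD3 (0.90), with 0.84, 0.76 and 0.55 over the 11 heifers. GLYCAM1 had ITM2B (0.77), L3HYPDH (0.73) and NUSAP1 (0.72), and MUC15 had TDG (0.90), CLCN3 (0.89) and LRPPRC (0.89). Over the 11 heifers these were 0.45, 0.55 and 0.58 for GLYCAM1 and 0.85, 0.83 and 0.85 for MUC15, and ITM2B was lowest in CON 7. For XDH, 48.2% of all genes had an r beyond 0.5 in either direction over 16 heifers, against 18.9% over the 11; for MUC15 these shares were 53.8% and 21.6%, for MUC1 9.50% and 14.0%.

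For LTF the 3 genes, chosen by r over the 16 arrays too and so partly for their values in the 3 low heifers, were ADGRE5, a leukocyte adhesion receptor, ERAP1, an aminopeptidase that trims peptides for antigen presentation, and IPO13, an importin. ERAP1 was at 4.79 in CON 7, 4.82 in CON 8 and 4.45 in NOCON 1, and from 5.38 to 6.43 in the 13 heifers above the gap of LTF, so the same 3 heifers were the lowest in both genes. In IPO13 too they were the 3 lowest, at 5.04, 4.99 and 4.96 against 5.15 to 5.54. ADGRE5 was at 5.50 in NOCON 1, but its values in CON 7 (6.07) and CON 8 (6.06) lay within the range of the 13. Over the 13 heifers alone, r with LTF was 0.68 for ADGRE5, 0.30 for ERAP1 and 0.66 for IPO13.

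Other genes of milk secretion were compared between CON and NOCON in the 6 pathway lists. None of their 71 measured genes passed in either direction, against 2 of the 18435 genes, both lower in CON, and 0.0598% of all probe sets. An unadjusted limma p under 0.05 was found for 2 of 4 caseins, 2 of 8 lactose and glucose genes and 1 of 16 other membrane and droplet genes. No gene of the remaining pathway lists had one, beside 1460 of all 18435 genes. All 4 caseins were measured and none passed. CSN1S2 had a log2 difference of 0.12 and CSN2 of 0.10 (adjusted p = 0.537 and 0.557 with limma), CSN3 of 0.05 and CSN1S1 of -0.01. Without the 5 arrays of low correlation these were 0.05, 0.11, 0.02 and -0.04. Of the 14 other whey genes 8 had higher means in CON (median 0.01), with the protease inhibitor CST3 at -0.11 and albumin, ALB, at 0.08 and dim (0.01 without the 5 arrays). Of the 16 other membrane and droplet genes 11 had lower means in CON (median -0.07), with the small GTPase RAB18 at -0.22 and the droplet protein CIDEA at -0.29 (adjusted p = 0.554 and 0.598 with limma). Without the 5 arrays of low correlation RAB18 was at -0.11 and CIDEA at -0.03, and without CON 7 CIDEA was at -0.19.

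Among 8 genes of lactose synthesis and glucose uptake 6 had lower means in CON (median -0.14), with the glucose transporters SLC2A1 at -0.26 and SLC2A8 at -0.19, or -0.17 and -0.0062 without the 5 arrays of low correlation. All 10 genes of the prolactin and STAT5 pathway had lower means in CON (median -0.14), with the feedback inhibitors CISH at -0.26 and SOCS2 at -0.11, or -0.09 and -0.06 without the 5 arrays. The mean of this list was lowest in CON 7, as was that of the lactose list (-0.42). The difference between the groups in the mean of the prolactin and STAT5 list was -0.16, against -0.05 without CON 7 and 0.0085 without the 5 arrays. The luminal epithelium markers had lower means in CON in 13 of 14 genes (median -0.15), and their mean differed by -0.15, by -0.05 without CON 7 and by -0.02 without the 5 arrays. The part of CON 7 and of the luminal markers in the values of the prolactin list was not tested. Of the 19 acute phase and defence genes 12 had higher means in CON (median 0.02). The serum amyloid gene M-SAA3.2, of a family of closely similar genes, averaged 7.34 ± 1.21 (SD) across the 8 CON heifers against 6.62 ± 0.53 across the 8 NOCON heifers, a log2 difference of 0.72 that did not pass (adjusted p = 0.619 with limma) and was 0.38 without CON 7 and 0.19 without the 5 arrays. The beta-defensin gene LAP, which was dim, differed by 0.10 (0.02 without the 5 arrays). For comparison, 9010 of all 18435 genes had higher and 9425 lower means in CON.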

How the data were processed

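RNA from mammary needle biopsies of 16 heifers, 8 per group, was hybridised as biotin-labelled cRNA to Affymetrix arrays, per the labels' protocols. The authors deposited 1 table of 26773 probe sets; the tools given in the submitters' processing notes are GCOS and RMA, with no version, and RMA corrects background, normalizes between arrays and summarises probes. The sources used here do not state the log base; deposited values from 2.73 to 12.66 were read as log2. Nor do they state chip definition, filters or genome build, so no coordinates are given, and detection per probe set was not assessed. RMA compresses differences of dim and of very bright probe sets.

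Probe sets were named through the platform annotation: 18790 had 1 symbol, 385 several and 7598 none; 21 symbols were updated through the RefSeq table of ARS-UCD2.0. The 9 genes share their values with no other probe set. A gene was read from its brightest probe set. Groups come from the sample titles.

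CON was compared with NOCON by limma 3.58.1 (lmFit, eBayes with default settings, R 4.3.3) over all probe sets and with group as the single term, with p-values adjusted by Benjamini-Hochberg across the whole table and a threshold of 0.05; printed adjusted p-values of differences are limma's. Exact two-sided permutation tests used all 12870 regroupings. Correlations used 100000 permutations of heifers (two-sided), adjusted over 36 pairs and, separately, 144 relations with lists. A list's mean is that of its genes after each gene's mean over 16 arrays was subtracted. An array was counted as of low correlation where its median correlation with the others was over 5 median absolute deviations (scaled) under the typical array. Fits and correlations were tested on simulated data.

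Named were the 9 genes, the 3 genes most correlated with each, the 4 caseins and, of each other pathway list, the 2 genes with the smallest p. The genes, lists and tests were chosen with earlier results of these data known. Deviations of same-numbered heifers from their group means had an r from -0.43 to 0.29. The first principal component, farthest out in CON 7, held 54.4% of the variance, so these r cannot show that the samples are unpaired. The titles give only a replicate number, and no pairing was used in the main fit. Alternatives were a filter on dim probe sets, other eBayes settings, array weights, median centring, quantile normalization, a block for the replicate number, a covariate for the first principal component, arrays left out, an adjusted p of 0.10, the exact test, all probe sets of a gene, and for correlations ranks and deviations from group means.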

Additional observations from a re-analysis of the deposited data

Results flagged for a closer look

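Within the groups of 8, 2 values lay farther from the nearest other heifer than Dixon's 95% criterion for the gap over the group's range allows, among 18 groups of values; chance flags about 1 in 20 groups. LTF was at 7.44 in NOCON 1, the lowest of its group, with the next heifer at 9.58. XDH was at 10.12 in CON 7, the lowest of its group, with the next heifer at 10.75. Both heifers had arrays of low correlation, and the part of that in these values was not tested.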

How the results depend on the processing

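None of the 9 genes passed in any of the 27 alternatives, 16 of which leave out 1 heifer, while their signs moved. Array weights gave -0.00025 for LALBA, -0.0183 for BTN1A1 and 0.0378 for MUC15; median centring -0.0076 for BTN1A1 and -0.0212 for XDH; the first principal component as a covariate 0.19 for LTF, 0.0308 for MUC15 and 0.0211 for MFGE8; and leaving out the 5 arrays of low correlation -0.0078 for BTN1A1, 0.0020 for MUC1, 0.0402 for MUC15 and 0.0210 for MFGE8. With 1 heifer left out, the log2 difference ran from -0.41 to 0.12 for LTF, -0.0347 to 0.0627 for BTN1A1, -0.0687 to 0.0988 for XDH, -0.0319 to 0.0179 for MUC15, -0.0251 to 0.0234 for MFGE8 and -0.0424 to 0.0345 for CSN1S1; LALBA, PAEP, GLYCAM1 and MUC1 kept their signs. The number of probe sets past the threshold was 67 with array weights, 4 with the replicate number as a block, 44 with the principal component, 35 at an adjusted p of 0.10 and 0 with the exact test (2320 had an unadjusted limma p under 0.05). The exact test gives no p under 0.000155, which passes adjustment over 26773 probe sets only if many share it. Its 0 therefore does not bear on the limma calls. The replicate block changed no call among the 9 genes. Of the 36 pairs, 2 passed by rank correlation, 0 with deviations from group means, 17 with median centring and 1 with all probe sets of a gene, and from 0 to 6 with 1 heifer left out. Of the 144 relations with lists, 0 passed by rank correlation, 44 with median centring, 0 with quantile normalization, 5 with all probe sets of a gene and 0 without the arrays of low correlation, and from 0 (without CON 7) to 16 (without NOCON 5) with 1 heifer left out; 2 passed without NOCON 1. Without the arrays of low correlation r turned to -0.15 for BTN1A1 with XDH, -0.34 for BTN1A1 with endothelium, -0.0418 for XDH with endothelium and 0.53 for XDH with neutrophils. The cause of these shifts was not tested. The gap in LTF was 1.31 with median centring, 0.83 with quantile normalization and 1.39 without the arrays of low correlation, settings added after seeing the data. A count of probe sets with all probe sets of a gene averaged could not be given, because that fit has genes in place of probe sets.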
